A study of Caenorhabditis elegans with 2 samples.

Results

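The 8 genes cct-1 to cct-8 encode the subunits of the cytosolic chaperonin CCT, also called TRiC, and were examined for binding of the transcription factor AHA-1 in Caenorhabditis elegans. They were taken by name from 19973 annotated protein-coding genes. The pooled list of 30000 regions was deposited as peaks and background. Its regions are called candidates here, and a candidate need not be a bound site. A summit inside 1 of the 8 genes or within 3 kb of their transcript starts was found for 29 candidates. The data came from chromatin immunoprecipitation followed by sequencing (ChIP-seq) of AHA-1 carrying an eGFP tag, in L4 larvae of mixed sex from strain OP124, whose genotype is unc-119(ed3) III with the insertion wgIs124. There was 1 group of 2 biological replicates, numbered 1 and 2, both of this strain, and no other strain, stage or treatment was compared. The labels name the antibody aha-1 and the target eGFP-aha-1. The tagged protein was made from a transgene, and whole animals were used, so binding was averaged over all tissues.

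CCT is a double ring in which each ring holds a copy of each of the 8 different subunits. Newly made proteins enter its cavity and fold in cycles of ATP binding and hydrolysis. Actin and tubulin are its best known clients, and prefoldin hands unfolded chains to it. Since the subunits are assembled together, their genes are often treated as 1 co-expressed set. AHA-1 is the worm counterpart of mammalian ARNT, a basic helix-loop-helix protein with PAS domains. It pairs with HIF-1 and with AHR-1, and sites of such dimers contain the core ACGTG or GCGTG.

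The sequences below are 101 bp windows centred on pooled summits, read from RefSeq's copy of WBcel235, the assembly that the peak lists name ce11. Each is written 5′ to 3′ on the strand of the CCT gene, with ACGTG and GCGTG on either strand in capitals (they read CACGT and CACGC on the other one). The first pair lies under the strongest CCT peaks, at cct-1 (chrII:8185168-8185268, plus strand) and cct-7 (chrV:1871959-1872059, plus strand), and is shown because a core sits under one summit and not under the other.
cct-1: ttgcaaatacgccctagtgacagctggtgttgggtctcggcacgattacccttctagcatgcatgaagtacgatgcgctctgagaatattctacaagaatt
cct-7: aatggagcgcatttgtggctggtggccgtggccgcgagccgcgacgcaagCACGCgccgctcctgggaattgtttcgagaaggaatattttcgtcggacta

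The next 3 are the peaks of middle strength at cct-5 and cct-8. They are the upstream peak of cct-5 (chrIII:4508525-4508625, minus strand), its intronic peak of almost equal signal (chrIII:4499975-4500075, minus strand) and the upstream peak of cct-8 (chrIV:1094338-1094438, minus strand).
cct-5, upstream: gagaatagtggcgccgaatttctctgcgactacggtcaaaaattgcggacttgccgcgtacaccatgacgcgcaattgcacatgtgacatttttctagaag
cct-5, intron: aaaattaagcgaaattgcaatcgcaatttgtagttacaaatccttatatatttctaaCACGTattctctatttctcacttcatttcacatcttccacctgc
cct-8, upstream: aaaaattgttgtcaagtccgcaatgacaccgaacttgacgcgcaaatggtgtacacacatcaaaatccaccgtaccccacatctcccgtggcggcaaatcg

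The last pair lies at the starts of the subunit genes with weak candidates, cct-2 (chrII:8927508-8927608, plus strand) and cct-4 (chrII:8283545-8283645, plus strand), and shows how rich in A and T these windows are.
cct-2: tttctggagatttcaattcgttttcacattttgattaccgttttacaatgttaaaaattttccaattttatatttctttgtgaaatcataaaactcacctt
cct-4: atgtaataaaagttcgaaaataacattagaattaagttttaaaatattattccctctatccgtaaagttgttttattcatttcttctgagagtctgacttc

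AHA-1 peaks differed widely between the genes of this single complex. The genes cct-1 and cct-7 each had 1 peak in the authors' IDR list, which keeps peaks that pass a threshold on the irreproducible discovery rate. Both pooled summits lay upstream and were nearer to the start of a neighbouring gene, so position does not assign them to the CCT genes. In the pooled list cct-5, cct-6 and cct-8 had weaker peaks just upstream, cct-2 and cct-4 had weak candidates, and cct-3 had none within 500 bp of a start. In replicate 1, the upstream peak of cct-5 ranked above that of cct-1 (2534 against 4666). In replicate 2 alone, cct-2 ranked above cct-5 and cct-8. All 8 had some candidate in the window, but so did 82.6% of protein-coding genes, so a candidate alone says little about a gene. An IDR summit was counted for 2 of the 8, against 4.25% of protein-coding genes. The same 2 genes made up the count at a pooled rank of 1000 or better, which 7.33% of all genes reached.

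Those lists rank peaks by the authors' signal value, the peak caller's measure of ChIP against control, which orders peaks within a list and has no unit. Each list also gives a −log10 q-value, which is higher for better supported peaks. In the pooled list it was 3.27 for the strongest peaks of both cct-1 and cct-7. These q-values were capped at a maximum in each list, so equal values need not mean equal support. The 530 IDR peaks were the 530 strongest pooled peaks, with signals of 25.25 and above, and the next candidate had 25.24. The cct-7 peak, at 25.7, therefore stood just inside that limit, and cct-1, at 27.97, somewhat higher. The median over the IDR list was 32.2 and the median over all candidates 7.08. The pooled list and both replicate lists held exactly 30000 regions each, with no read counts, so the sequencing depth is unknown. Median signal was 3.91 in replicate 1 and 4.87 in replicate 2, and signals are not set against each other across lists.

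**Figure D1:**
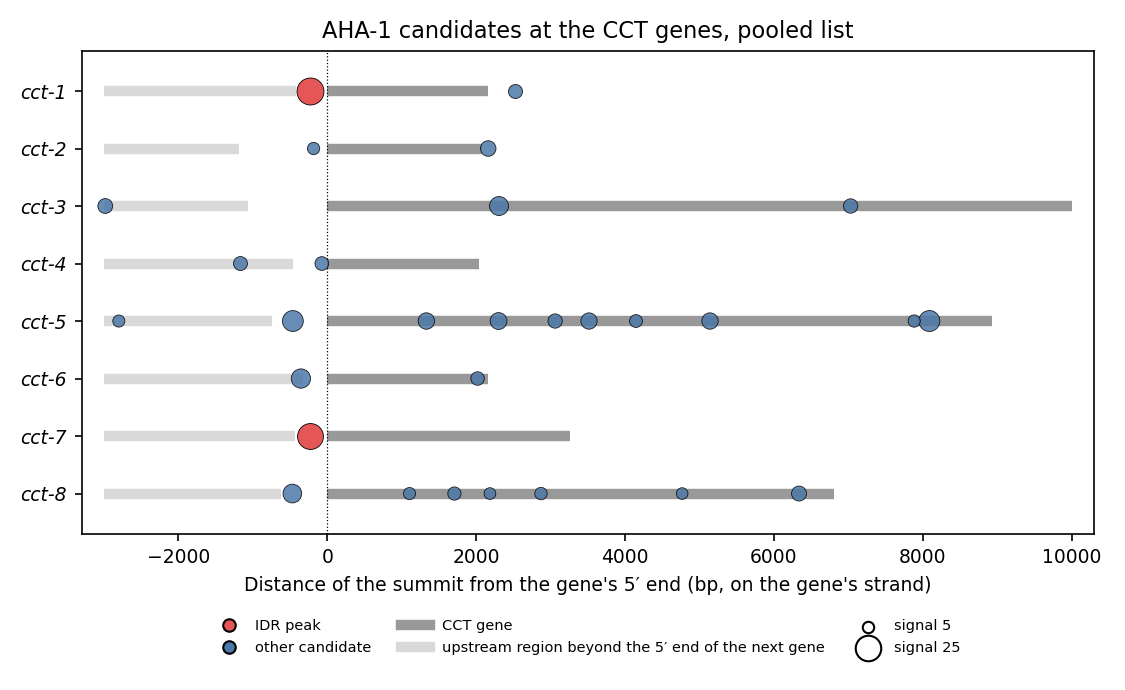
Position of each pooled candidate summit (horizontal axis, bp from the 5′ end of the gene, on its strand) for the 8 CCT genes; circle area is proportional to the signal, dark bars are the CCT genes and pale bars the region beyond the 5′ end of the next gene upstream. The IDR peaks of cct-1 and cct-7 (signals 27.97 and 25.7) sit in the short gap to the upstream neighbour. The genes cct-5 and cct-8 carry many candidates along the gene, and those inside cct-8 are all weak.

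The cct-1 gene encodes the subunit also known as TCP-1 alpha. It lies on the plus strand of chromosome II (chrII:8185443-8187601, WBGene00000377), and its strongest peak spanned chrII:8185060-8185375 with the summit at 8185218, between genes and 225 bp upstream of the start. This peak had signal 27.97 and rank 412 in the pooled list. In replicate 1 the overlapping peak had signal 6.31 and rank 4666. In replicate 2 it had signal 23.0 and rank 170. The place of cct-1 among the strong peaks thus came from replicate 2. A replicate 1 rank as low or lower, or no overlapping replicate 1 peak, was found for 24 of the 530 IDR peaks (4.53%). So low a place in replicate 1 was thus uncommon in the IDR list. A replicate 2 rank as high as that of cct-1 or higher was found for 167 of the 530 (31.5%). About 170 replicate 2 peaks can hold such a rank, so this share is limited by the rank itself. The deposited notes record the IDR list as derived from the pooled list and that of replicate 2, and do not state whether the list of replicate 1 entered that step. An IDR peak is therefore not taken here as a peak shown to recur in replicate 1.

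The pooled summit was slightly nearer to another gene. The start of mig-5, which encodes a Dishevelled protein of Wnt signalling, lay 195 bp away on the opposite strand, against 225 bp for cct-1. The replicate 2 summit was also nearest mig-5, at 174 bp, but the replicate 1 summit was nearest cct-1, at 177 bp. Both starts face the same gap of 419 bp, and the peak was 316 bp wide, so the peak cannot be assigned to either gene by position. The other cct-1 candidate lay 2520 bp downstream of the start, past the end of the gene in a coding exon of T05C12.8, with signal 7.55.

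The cct-7 gene encodes the eta subunit (chrV:1872246-1875505, plus strand, WBGene00020391). It had a single pooled candidate, spanning chrV:1871851-1872166 with the summit at 1872009, 237 bp upstream of the start. Its pooled signal was 25.7 and its rank 514. The overlapping peaks had signal 13.6 and rank 487 in replicate 1, and signal 14.8 and rank 599 in replicate 2. Of the peaks at CCT starts, this was the one that stood among the 1000 strongest of each replicate. Among the IDR peaks 354 of 530 (66.8%) did so. The nearest start, at 202 bp, was that of T10B5.4 on the other side of a gap of 438 bp, and the pooled summit also fell inside the annotated non-coding RNA gene T10B5.13.

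Moderate upstream peaks marked cct-5, cct-6 and cct-8. The cct-5 gene (chrIII:4499188-4508114, minus strand, WBGene00000380) encodes the epsilon subunit, mutated in a sensory neuropathy in humans. Its upstream peak, 461 bp from the start, had signal 16.7 and pooled rank 1391, with rank 2534 in replicate 1 and 4476 in replicate 2. The nearest start was that of F25F2.1, named here after its values were seen, at 280 bp across a gap of 740 bp.

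The cct-6 gene (chrIII:5853530-5855687, minus strand, WBGene00000381), for the zeta subunit, had its strongest summit 353 bp upstream. There the pooled signal was 14.3 and the rank 2173, with rank 7558 in replicate 1 and 2351 in replicate 2. This summit lay 22 bp past the start of alh-9, an aldehyde dehydrogenase gene, in its UTR exon.

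The cct-8 gene (chrIV:1087108-1093920, minus strand, WBGene00021934), for the theta subunit, has been studied in worm ageing, where extra CCT-8 raised chaperonin assembly. Its strongest summit lay 468 bp upstream, with signal 13.4 and pooled rank 2576, and with rank 5093 in replicate 1 and 5762 in replicate 2. It was 153 bp from the start of Y55F3AR.2, and the non-coding RNA gene Y55F3AR.4 lay within 200 bp. Replicate ranks were close for cct-8 and further apart for cct-6, and each of these 3 upstream peaks was present in both lists.

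For the upstream peaks of cct-5, cct-6 and cct-8 the pooled rank was better than the rank in either replicate. This is common, since 952 of the 2000 pooled peaks ranked 1001 to 3000 (47.6%) were also placed better in the pooled list than in both replicates.

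The remaining 3 genes had weak or no pooled candidates at their starts. For cct-4 (chrII:8283667-8285711, plus strand, WBGene00000379), the delta subunit gene, a candidate 72 bp upstream had signal 7.23, −log10 q 0.508 and rank 14295 in the pooled list. Its rank was 18928 in replicate 1, where the summit lay 105 bp from the pooled one, and 8622 in replicate 2. A pooled candidate of about the same signal, 7.49, lay 1165 bp upstream in a coding exon of nst-1, the nucleostemin gene, and overlapped no peak of either replicate.

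For cct-2 (chrII:8927741-8929815, plus strand, WBGene00000378), the beta subunit gene, the candidate 183 bp upstream had signal 5.80, −log10 q 0.263 and pooled rank 22557. No replicate 1 peak overlapped it, whereas replicate 2 had an overlapping peak of signal 8.82 and rank 3196 with its summit 45 bp downstream of the start and 228 bp from the pooled summit. The strongest candidate counted for cct-2, with signal 9.24 and rank 7653, lay 63 bp from the start of the next gene, mrpl-50, which encodes a mitochondrial ribosomal protein. In replicate 1 it ranked 5452 and in replicate 2 5530. A far stronger peak lay outside the window, 3867 bp downstream of the cct-2 start. It had signal 54.3 and pooled rank 70 and was 498 bp from a start of enol-1, the enolase gene, which was named after its value was seen.

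Few candidates lay close to the limit of 3 kb. The candidate just inside it belonged to cct-3, 2981 bp upstream, with signal 8.43, and the one just outside lay 3042 bp from the start of cct-1, with signal 6.25.

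No list had a summit within 500 bp of the start of cct-3 (chrII:2233540-2243539, plus strand, WBGene00018782), which encodes the gamma subunit. The nearest to it was a replicate 2 peak 552 bp downstream, of rank 2841. Its strongest pooled candidate, of signal 13.7 and rank 2414, lay 2308 bp into the gene in a coding exon, and its overlapping peaks ranked 20013 in replicate 1 and 5572 in replicate 2.

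**Figure D2:**
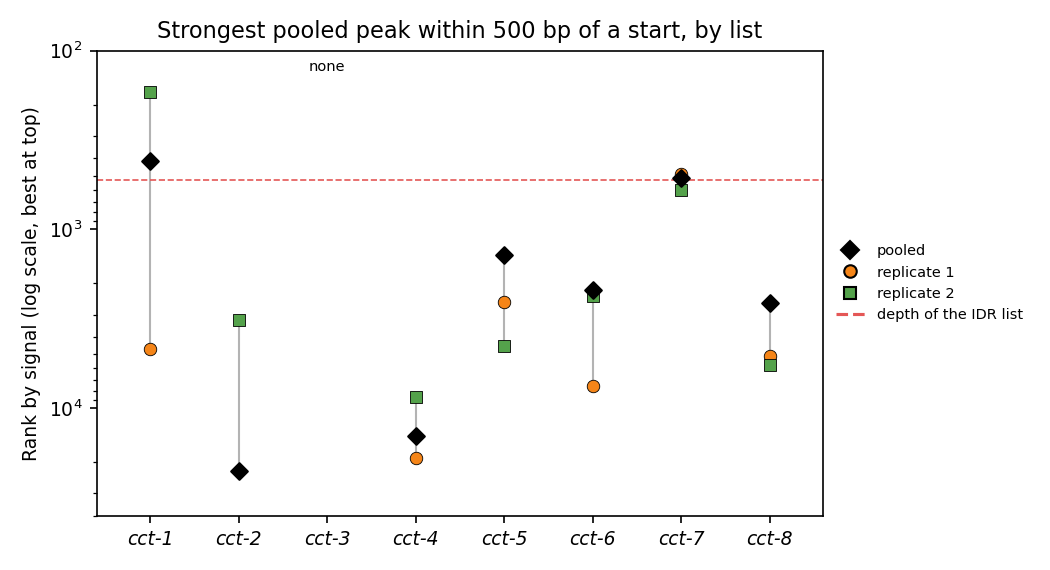
Rank by signal (vertical axis, log scale, best at the top) of the strongest pooled peak within 500 bp of a start of each CCT gene and of the overlapping peak in each replicate; the dashed line marks rank 530, the depth of the IDR list. The points of cct-7 nearly coincide (487, 514 and 599), those of cct-1 run from 170 to 4666, cct-2 has no replicate 1 point and cct-3 has no peak.

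The order of the subunits depended on the replicate. By the peak overlapping the strongest pooled one within 500 bp of a start, replicate 1 gave the order cct-7, cct-5, cct-1, cct-8, cct-6 and cct-4, with signals of 13.6, 7.72, 6.31, 6.10, 5.31 and 3.44. Replicate 2 gave cct-1, cct-7, cct-6, cct-2, cct-5, cct-8 and cct-4, with signals of 23.0, 14.8, 9.68, 8.82, 7.89, 7.25 and 6.24. Some features held in both replicates. The cct-7 peak stood above those of cct-5, cct-6, cct-8 and cct-4, the cct-1 peak stood above those of cct-6, cct-8 and cct-4, cct-4 came last among the genes with a peak, and cct-3 had none. Other places changed. Against cct-5, both cct-1 and cct-6 were lower in replicate 1 and higher in replicate 2, and cct-6 changed places with cct-8 in the same way. The cct-2 gene changed most, with no overlapping peak in replicate 1 and a peak above those of cct-5, cct-8 and cct-4 in replicate 2. These pairs, and the pair of cct-1 and cct-7, did not differ beyond the spread between replicates.

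Taken at the depth of the IDR list, each replicate alone counted 1 subunit, and a different one. The 530 strongest peaks of replicate 1 included the cct-7 peak and those of replicate 2 the cct-1 peak, where 4.06% and 4.2% of protein-coding genes had such a peak in the same window. Among the 1000 strongest, replicate 1 held cct-7 alone and replicate 2 held cct-1 and cct-7, against 6.97% and 7.29% of all genes.

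Set among all protein-coding genes by the strongest pooled candidate within 500 bp of a start, cct-1 stood within the top 1.24% and cct-7 within the top 1.54%. The shares of genes with a signal at least as high were 3.82% for cct-5, 5.47% for cct-6 and 6.17% for cct-8. They were 22.5% for cct-4 and 31.0% for cct-2, while cct-3 had no candidate there. Any candidate within 500 bp was present for 7 of the 8, against 37.6% of all genes. With genes that had none as 0, the median was 13.9 over the 8 subunits and 0 over all genes, and the median over the 7511 genes that had a candidate was 8.01. In the wider window, which includes the gene itself, the median strongest signal was 14.0 over the 8 subunits and 7.97 over all genes. All 8 also had a close upstream neighbour on the opposite strand, as described below, and these shares were not taken over such genes alone. No test of the subunits as a set was made.

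**Figure D3:**
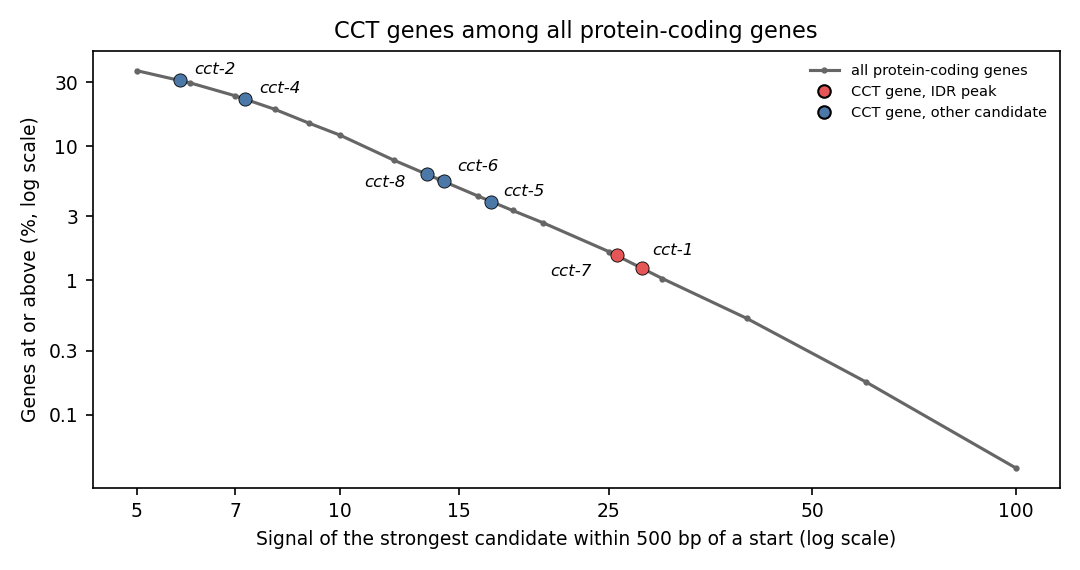
Share of the 19973 protein-coding genes (vertical axis, %, log scale) whose strongest pooled candidate within 500 bp of a start reaches a given signal (horizontal axis, log scale), with the 7 CCT genes that had such a candidate marked. The genes cct-1 and cct-7 lie at 1.24% and 1.54%, cct-5, cct-6 and cct-8 between 3.82% and 6.17%, and cct-4 and cct-2 at 22.5% and 31.0%.

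All 8 CCT genes shared a gene arrangement that the choice of members did not use. The nearest protein-coding gene upstream lay head to head with each of them, on the opposite strand, across a gap of 330 bp at cct-6 to 1189 bp at cct-2. A head-to-head neighbour within 2 kb was found for 4990 of all protein-coding genes, or 25%. This arrangement was noticed after the positions were seen. Of these 4990 genes, 3.45% had an IDR summit within 500 bp of a start, against 1.59% of all protein-coding genes, and of the 8 CCT genes 2 did. In both cases the pooled IDR summit was nearer to the start of the neighbour, mig-5 or T10B5.4, and so were the pooled upstream summits of cct-5, cct-6 and cct-8. Both replicate summits were nearer the neighbour as well at cct-5, cct-6, cct-7 and cct-8, but at cct-1 the replicate 1 summit was not. The weak upstream summits of cct-2 and cct-4 were the ones nearer to the CCT gene. When each summit was given to the gene with the nearest start, no CCT gene kept an IDR peak. Of the 29 candidates, 16 were nearer to the start of another gene. Annotated starts of worm genes are often trans-splice sites rather than true starts of transcription, so distances of this size carry that uncertainty as well.

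The core ACGTG or GCGTG was absent from most of the CCT summits. Within 50 bp of the strongest summit of each gene it was present for 2 of 8, cct-5 and cct-7, and it was present in 6 of the 29 candidate windows (20.7%). Over the series, 16.4% of all candidates and 49.4% of IDR peaks had it in a window of the same length, so the share at CCT genes was near that of all candidates. That share rested largely on cct-5. Apart from windows at cct-3 and cct-7, all candidate windows with a core lay in cct-5 introns. At cct-7 the core was GCGTG with its centre 2 bp from the summit, as the capitals in the sequence above show. At cct-5 the core was ACGTG, 9 bp from the intronic summit of rank 1378, while the upstream window of cct-5 had none.

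The cct-1 window held no core although its peak was an IDR peak, and none was found within 150 bp of that summit. At cct-6 the nearest core lay 63 bp from the summit, outside the 50 bp window. The longer motifs were looked for on both strands in the same way. Neither the E-box CACGTG nor TNGCGTG, the form bound by AHR dimers, both of which overlap the core, occurred at any of the strongest summits. They were present in 7.92% and 6.42% of IDR peaks, and in 2.18% and 2.04% of all candidates. The heat shock element spelled GAANNTTC occurred in the windows of cct-1 and of the cct-4 candidate in nst-1, and in 3.21% of IDR peaks and 7.01% of all candidates. The E2F-type motif GGCGGGAA was at none, and 0.566% of IDR peaks and 0.457% of candidates had it.

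The weak candidates at the starts of cct-2 and cct-4 lay in sequence with little G and C. In the 101 bp windows GC content was 59.4% at cct-7, 49.5% at cct-8, 48.5% at the upstream peak of cct-5, 46.5% at cct-1 and 39.6% at cct-6. It was 25.7% at cct-4 and 24.8% at cct-2. Low GC content and weak signal did not always go together. The intronic cct-5 peak, of signal 16.8, had 31.7% GC, whereas the cct-2 candidate by mrpl-50, of signal 9.24, had 47.5% and the cct-4 candidate in nst-1, of signal 7.49, had 46.5%. The median was 50.5% for IDR peaks and 36.6% for all candidates. The part of base composition in the signal was not tested.

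Pooled candidates were dense at cct-5 and cct-8. The window of cct-5 held 10 pooled candidates, or 0.838 per kb, and that of cct-8 held 7, or 0.713 per kb, whereas the other 6 genes had 0.16 to 0.333 per kb. The gap was narrower in replicate 1, with 1.01 per kb at cct-5 and 0.917 at cct-8, against 0.333 to 0.667 at the others. In replicate 2 there were 0.671 per kb at cct-5 and 0.611 at cct-8, against 0.167 to 0.333. Over protein-coding genes the pooled median was 0.290 per kb and the 95th percentile 0.735. At least 10 candidates were counted for 199 genes (0.996%), a share that makes no allowance for window length, which was 11927 bp at cct-5. The 8 cct-5 candidates inside the gene had signals between 5.76 and 16.8 and −log10 q-values between 0.257 and 2.96, and 7 of them lay in introns. The strongest and the weakest of these 8 candidates overlapped each other, and each was counted, also in the density above. The 6 inside cct-8 were weak, with signals between 5.19 and 8.62 and −log10 q-values between 0.18 and 0.829. A high density of such candidates is not a measure of binding. The gene cct-3 is longer than both, at 10000 bp, and held 2 in the pooled list, 6 in replicate 1 and 4 in replicate 2. By list, cct-5 held 8, 8 and 7 inside the gene and cct-8 held 6, 6 and 4, so cct-3 stood apart from them in the pooled list more than in the replicates. Of the 29 candidates of the CCT genes, 10 lay in introns, 9 in coding exons, 4 in UTR exons and 6 between genes.

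The strongest peak inside cct-5 lay in an intron near the end of the gene, with signal 16.8 against 16.7 for the upstream peak. It was 980 bp from the start of the next gene, atf-7, a bZIP factor of the p38 stress pathway. Its overlapping peaks had rank 23464 in replicate 1 and 6306 in replicate 2. Replicate 1 instead had its strongest cct-5 peak in another intron, of rank 1076 and signal 10.1. The upstream peak of cct-5 was thus the more even of the pair across replicates.

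Genes that work with CCT were examined in the same window, which is inside the gene or within 3 kb of a start. As given above, 4.25% of all protein-coding genes had an IDR summit there. None of the 6 prefoldin genes had an IDR summit. A candidate was present for 5 of them, which is near the 82.6% of all protein-coding genes with one. Of 23 genes for clients, which are actins, tubulins and the cell-cycle activators fzr-1 and fzy-1, 3 had an IDR summit. They were tba-1 (rank 126, nearest the start of cox-5B), tba-2 (rank 214, 161 bp upstream of its start) and tbb-2 (rank 371, 2170 bp into the gene). The median strongest signal was 7.78 for prefoldin and 14.8 for the clients.

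Among other chaperones, 4 of 8 genes of the cytosolic HSP70 and HSP90 system had an IDR summit. These were hsp-1 (rank 124), hsp-90 (177), hsp-110 (260) and bag-1 (509), all within 500 bp of a start. The hsp-90 and hsp-110 summits were nearer to the start of another gene, at 300 bp from C47E8.4 and at 214 bp from rpn-3. In replicate 1 they ranked 315, 327, 1097 and 1029, and in replicate 2 they ranked 105, 171, 289 and 730. The mitochondrial chaperonin gene hsp-60, whose product is a homo-oligomeric relative of CCT, had an IDR summit of rank 117, nearest the start of its neighbour Y22D7AL.10. The heat shock factor gene hsf-1 had none. Of 14 genes of the 20S proteasome, a further ring complex with many different subunits, 1 had an IDR summit, pbs-2, through the tba-2 peak, so that count was near the share over all genes. These lists are small, several members share a peak, and no difference between them and the CCT genes was tested.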

How the data were processed

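Peaks were those deposited by the authors on assembly ce11, as 1 list per replicate, 1 list from both replicates pooled and the IDR list. Per the notes deposited with the samples, each list came from alignments and a control. Aligner, peak caller and IDR threshold were not given in the sources used here. Within a list, the authors' signal value served to rank peaks. The deposited −log10 q-values, capped at a maximum in each list, served for an alternative ranking and are quoted for some candidates. The lists on ce10 were not used here.

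Summits were set on the WBcel235 annotation of Ensembl release 115, with Python 3.11.15 and pandas 2.3.3. A summit counted for a gene when inside it or within 3 kb of a transcript start. A replicate's peak matched a pooled peak by overlap of at least 1 bp, the best rank being taken. Assignment and motif search were checked on simulated data.

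No statistical test was made. The study has 1 group, peaks are not replicates, and both ranks stand for the spread. All 8 members are named, with the genes nearest their strongest or IDR summits and up to 4 members per list with an IDR summit. Members, the other 6 gene lists and the motifs were chosen with earlier results of these data known.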

Additional observations from a re-analysis of the deposited data

How the results depend on the processing

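All 8 genes kept a candidate within 5 kb, from the most upstream start only and in each replicate; 7 had one in the promoter window (1000 bp upstream to 500 bp downstream) and within 500 bp, and 6 with the nearest start only. The number of CCT genes with an IDR summit was 2 in the promoter window, within 500 bp of a start, from the most upstream start only and among the 1060 strongest candidates. It was 3 within 5 kb, which added to cct-2 a peak of rank 70 nearest enol-1. It was 0 with the nearest start only and 0 among the stronger 265 IDR peaks. Shares over all protein-coding genes were taken for the windows of 3 kb and 500 bp only. The counts in the other windows therefore have no such share beside them, and a wider window takes in more peaks for every gene. There is no IDR list without a replicate, so the 530 strongest peaks of the remaining replicate were used instead. By these, the number was 1 without replicate 1 and 1 without replicate 2. At rank 1000 or better the number was 0 with the nearest start only, 2 without replicate 1 and 1 without replicate 2. The core was present for 2 genes within 25 bp, for 3 within 100 bp and, in an alternative chosen after seeing the data, for 1 when the strongest peak within 500 bp of a start was taken. Of 14 replicate ranks, 2 moved by more than the spread between replicates when peaks were ranked by q-value, and none of 13 when summits within 100 bp were required, which left cct-5 without its replicate 1 match. For the peaks within 500 bp of a start, 11 of 13 matches met that limit, and cct-2 in replicate 2 and cct-4 in replicate 1 lost theirs. No paired analysis was possible because there was 1 group. Read depth is unknown, so a missing peak may be a peak below the lists' limit.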

Other observations

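The upstream windows of cct-5 (chromosome III) and cct-8 (chromosome IV) shared a run of 12 bases, caagtccgcaat, on opposite strands of the genes. The run occurred 21 times in the 6 chromosomes on either strand, and 8 of the 30000 candidate windows of 101 bp held it. The windows of cct-5 and cct-8 shared shorter runs as well. Among these were tgacgcgcaa on the same strand and gtacaccat, as read at cct-5, on opposite strands. Only the longest run of each pair was recorded. Among the other pairs of the 7 upstream windows the longest shared run was 6 to 8 bases. The runs were compared after the sequences had been seen, and what the shared runs are was not tested.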
